A study of Mus musculus with 22 samples.

Results

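Cdkn1a and 7 other genes that p53 is known to activate (Mdm2, Ccng1, Bax, Trp53inp1, Sesn1, Phlda3 and Btg2) were examined in mouse hindbrain and in RNA pulled down from its noradrenergic cells. The genes were picked by name, and the choice was made with their values in these libraries known. All 8 were in the table, which held 12596 genes. Cdkn1a was the member that stood apart: in the pulled-down RNA its level was 2.41-fold higher in hTyr-infused than in EYFP-infused animals, and in the unpurified RNA of the same animals 1.41-fold higher. The other 7 differed between treatments by at most 0.32 on the log2 scale in either fraction.

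The data came from 11 mice on a C57Bl/6 background, a cross of Th-cre, in which the tyrosine hydroxylase gene's promoter drives Cre, with Slc6a2-eGFP/Rpl10a, in which the noradrenaline transporter gene drives a ribosomal protein tagged with green fluorescent protein. The tag allows ribosomes of noradrenergic cells, with the RNA on them, to be pulled down (IP, labelled noradrenergic), while the RNA taken before that step is the input, labelled total hindbrain. The infused hTyr is human tyrosinase, the enzyme that starts melanin synthesis, and EYFP is a fluorescent protein used as the control. Each of the 5 hTyr and 6 EYFP animals gave 1 IP and 1 input library, and animals are numbered within a treatment in the order of their identifiers. All animals of both treatments are described by the same cross, so the controls carry both transgenes too. Age, sex, dose and time after infusion are not given in the sources used here.

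p53 is a transcription factor that is held low by MDM2, an E3 ubiquitin ligase whose gene p53 itself activates, so that the pair forms a feedback loop. After DNA damage and other stresses p53 accumulates and activates genes that stop the cell cycle, repair DNA, alter metabolism or trigger cell death. In neurons, which no longer divide, Cdkn1a and several other targets are also known to respond to stress signals that do not pass through p53.

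p53 binds a short pair of half-sites, and promoters are shown here because the members were grouped as p53 targets and differ in whether such a site stands close to the start. RefSeq (GRCm38.p6, the same mouse build as the mm10 named in the submitters' processing notes) gave an entry for 7 of the 8 members, with 9 start sites, and the 250 bases before each were searched. The p53 half-site, a consensus of 10 letters that reads alike on both strands, was matched exactly at 5 of the 9 start sites, against 7.126% of 32851 promoters. A full site, taken as a pair of half-sites with no spacer and at most 2 mismatches over 20 letters, was found at 2 of the 9, against 0.2709% of promoters. Matches to the half-site may overlap a full site. The sequences below run 5′ to 3′ on the gene's strand and end at the base before the start, with matches in capitals. Cdkn1a and Ccng1 are the members with a full site, Mdm2 has a half-site alone, and Phlda3, which was higher in hTyr in both fractions, has neither.
Cdkn1a, chr17:29090729-29090978, plus strand: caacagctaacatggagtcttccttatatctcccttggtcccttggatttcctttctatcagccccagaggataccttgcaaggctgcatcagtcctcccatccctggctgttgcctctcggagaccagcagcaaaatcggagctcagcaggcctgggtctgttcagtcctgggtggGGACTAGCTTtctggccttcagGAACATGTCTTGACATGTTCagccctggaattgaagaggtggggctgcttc
Ccng1, chr11:40755287-40755536, minus strand: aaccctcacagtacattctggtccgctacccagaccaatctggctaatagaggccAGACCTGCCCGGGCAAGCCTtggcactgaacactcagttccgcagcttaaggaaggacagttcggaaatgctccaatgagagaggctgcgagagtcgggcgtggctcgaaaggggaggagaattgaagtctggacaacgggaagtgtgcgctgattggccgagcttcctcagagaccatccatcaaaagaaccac
Mdm2, chr10:117710759-117711008, minus strand: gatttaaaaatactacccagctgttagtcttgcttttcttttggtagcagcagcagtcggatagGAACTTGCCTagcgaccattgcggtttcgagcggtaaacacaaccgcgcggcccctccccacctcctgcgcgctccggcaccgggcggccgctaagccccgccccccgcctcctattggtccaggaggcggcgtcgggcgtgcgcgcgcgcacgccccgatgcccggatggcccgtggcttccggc
Phlda3, chr1:135765835-135766084, plus strand: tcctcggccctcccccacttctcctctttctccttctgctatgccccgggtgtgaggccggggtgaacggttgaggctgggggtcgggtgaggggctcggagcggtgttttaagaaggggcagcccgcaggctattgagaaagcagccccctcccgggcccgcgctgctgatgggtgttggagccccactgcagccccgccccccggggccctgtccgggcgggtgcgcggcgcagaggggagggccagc
The Cdkn1a full site, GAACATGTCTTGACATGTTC, lay 51 to 32 bases before the first of that gene's 2 start sites and had 1 mismatch. A further half-site match, GGACTAGCTT, lay 73 to 64 bases before that start. The Ccng1 full site, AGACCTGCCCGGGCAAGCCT, lay 195 to 176 bases before the start, also with 1 mismatch. Bax had a half-site 201 to 192 bases before its start, and Sesn1 had one 173 to 164 bases before the second of its 2 start sites. Windows without a match were those of Phlda3, Btg2, the second Cdkn1a start and the first Sesn1 start. A match is a string of letters in this window, and no binding was measured here.

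Libraries held between 12654489 and 25100142 reads in the table. The members were counted from 153 to 5046 reads per library, so no member was near the detection limit. The label of the IP was checked on 9 noradrenergic markers, of which 9 were higher in IP than in input in both treatments (limma, adjusted p under 0.05), with a median log2 difference of 1.99 in EYFP and 2.78 in hTyr animals. Their mean log2 CPM lay between 5.74 and 7.33 in hTyr IP and between 5.38 and 6.50 in EYFP IP. Markers of other cell types were present in the IP as well: none of 10 oligodendrocyte, 9 astrocyte, 11 microglial and 5 endothelial markers was at 0 reads in any group. The table was filtered before deposit, so a gene in it was unlikely to be at 0. Of 7 listed endothelial markers, 2 (Cdh5 and Tek) were not in the table. The oligodendrocyte markers summed to between 6201 and 8534 CPM in hTyr IP and between 6286 and 7920 CPM in EYFP IP, so the IP also held RNA of other cell types. The 1 gene that passed for the treatment in input was Slc6a2, whose regulatory sequence drives the tag, at -0.91.

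**Figure D1:**
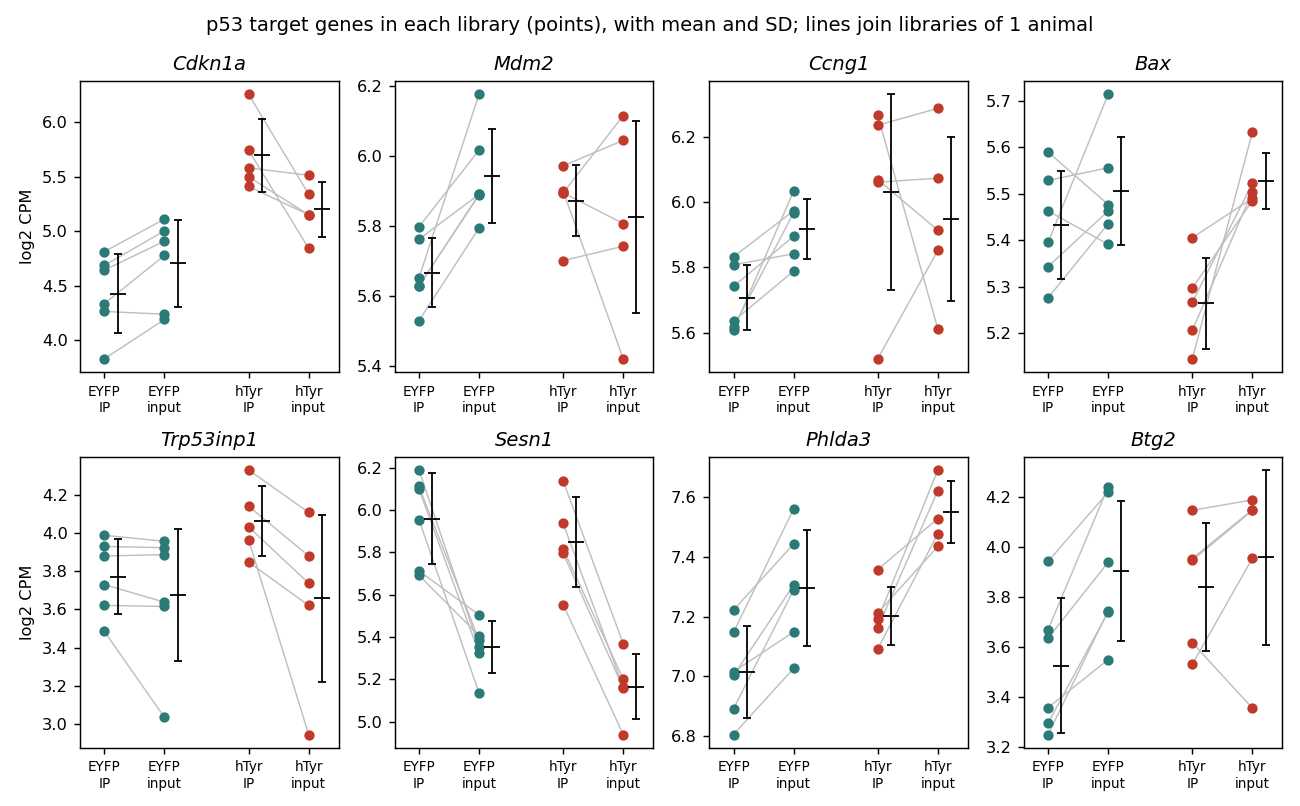
Level of the 8 p53 target genes in every library, in log2 CPM (y axis), by group (x axis: EYFP IP, EYFP input, hTyr IP, hTyr input); points are libraries, grey lines join the IP and input of an animal, and black marks give mean and SD, with 6 EYFP and 5 hTyr animals. The y axes differ between panels and do not start at 0. In the Cdkn1a panel the hTyr IP libraries, from 5.41 to 6.26, all sit above the EYFP IP libraries, from 3.83 to 4.81.

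Cdkn1a (17:29090979-29100722, plus strand) encodes p21, an inhibitor of cyclin-dependent kinases that arrests the cell cycle and is the best known p53 target. Its values are in log2 CPM, that is, counts scaled to library size on a log2 scale. In IP it read 6.26, 5.74, 5.58, 5.41 and 5.50 in hTyr animals 1 to 5 in turn. In EYFP animals 1 to 6 it read 3.83, 4.27, 4.34, 4.81, 4.64 and 4.69. The lowest hTyr IP library was thus above the highest EYFP one, as held for 0.389% of all genes. In input the same hTyr animals read 5.34, 4.85, 5.51, 5.15 and 5.15, and the EYFP animals read 4.19, 4.24, 4.78, 5.11, 4.91 and 5.01. The input groups overlapped, since hTyr animal 2 lay below 3 of the EYFP animals.

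The log2 difference of Cdkn1a between hTyr and EYFP was 1.27 in IP (SE 0.17, 95% interval 0.91 to 1.64) and 0.49 in input (SE 0.17, interval 0.14 to 0.85). Averaged over the IP and input of each animal, it was 0.88 (SE 0.15), and the hTyr animals, from 5.28 to 5.80, did not overlap the EYFP animals, from 4.01 to 4.96, where 0.175% of all genes were higher without overlap. The difference was larger in IP than in input by 0.78 (SE 0.26, from a fit that did not pair libraries by animal). These are the values that the choice of the gene used, so they are given as a description with no test. Across all genes, 0.0556% passed an adjusted p of 0.05 in IP (limma, Benjamini-Hochberg), and Cdkn1a was the 1 of the 8 members among them. In input 0.00794% of genes passed, and 0 of the 8 members did. Both counts come from the contrasts that the choice of members used, and nothing is read from them. With total reads as a covariate the IP difference of Cdkn1a was 1.32 and no gene passed. In whole tissue and in pulled-down RNA alike, a change in the number of expressing cells and a change in RNA per cell cannot be told apart.

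The 4 groups stood in the order EYFP IP (4.43 ± 0.36, SD, n = 6), EYFP input (4.71 ± 0.40, n = 6), hTyr input (5.20 ± 0.25, n = 5) and hTyr IP (5.70 ± 0.34, n = 5). Each group overlapped its neighbour in that order. The order of the fractions turned between treatments: IP was below input in 5 of 6 EYFP animals and above input in 5 of 5 hTyr animals. IP minus input ranged from -0.44 to 0.03 in EYFP and from 0.07 to 0.92 in hTyr, without overlap. The noradrenergic markers averaged 6.32 ± 0.64 in hTyr IP and 5.90 ± 0.41 in EYFP IP (mean log2 CPM ± SD), and the oligodendrocyte markers 8.52 ± 0.15 and 8.48 ± 0.09. Over the 22 libraries the deviations of Cdkn1a from its group means had a Pearson's r of 0.21 with those of the noradrenergic markers and 0.29 with those of the oligodendrocyte markers. The part of these cell types in the Cdkn1a values was not tested. Of the exon bases of Cdkn1a, 273 (7.68%) overlap AC167363.2 on the opposite strand, and whether the counting used strand is not given in the sources used here.

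**Figure D2:**
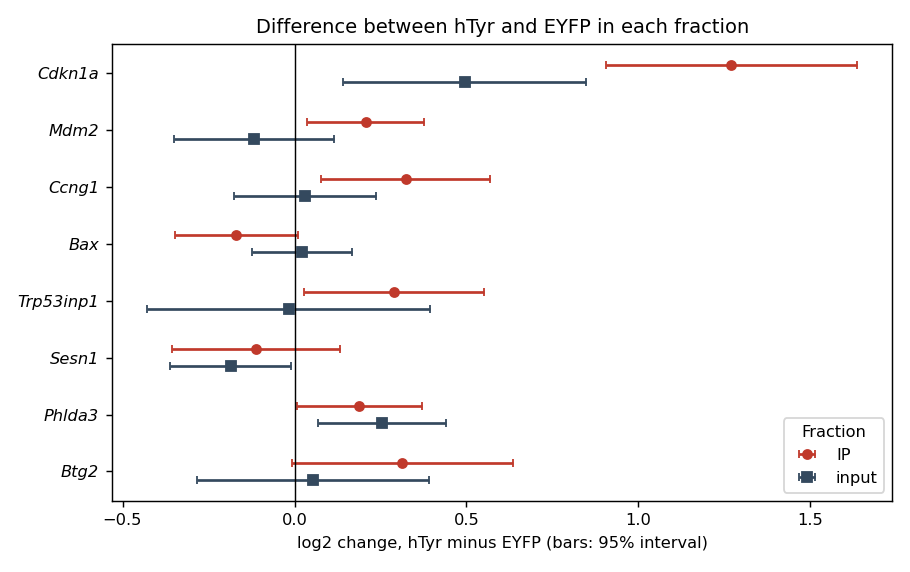
Log2 difference between hTyr and EYFP (x axis) for each gene (y axis) in IP (red circles) and input (dark squares), with 95% intervals from limma over 11 libraries each. Cdkn1a stands at 1.27 in IP and 0.49 in input, while the other 7 genes lie between -0.19 and 0.32.

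Mdm2 (10:117688875-117710758, minus strand), the ligase that marks p53 for degradation, is the target through which p53 limits itself. In IP it ranged from 5.70 to 5.97 with a median of 5.90 in hTyr and from 5.53 to 5.80 with a median of 5.64 in EYFP. In input it ranged from 5.42 to 6.12 in hTyr and from 5.79 to 6.18 in EYFP. The hTyr IP values were mostly above the EYFP ones but overlapped them at hTyr animal 5. Its treatment difference was 0.21 in IP (SE 0.08) and -0.12 in input (SE 0.11), on opposite sides of 0.

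Ccng1 (11:40748552-40755309, minus strand) encodes cyclin G1, a p53 target that recruits a phosphatase to MDM2. In hTyr IP it read 6.27, 6.07, 6.06, 6.23 and 5.52 in animals 1 to 5. In EYFP IP it ranged from 5.61 to 5.83. In IP, 4 of the 5 hTyr animals lay above all EYFP animals and 1, animal 5, lay below all of them. In input the EYFP range of 5.79 to 6.03 fell inside the hTyr range of 5.61 to 6.29. The difference was 0.32 in IP (SE 0.12) and 0.03 in input (SE 0.10). Without hTyr animal 5 the IP difference was 0.45.

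Btg2 (1:134074865-134079155, minus strand), an antiproliferative gene that is also induced by neuronal activity, was the second lowest of the members per length of transcript. It ranged from 3.53 to 4.15 in hTyr IP and from 3.25 to 3.94 in EYFP IP. In input it ranged from 3.36 to 4.19 in hTyr and from 3.55 to 4.24 in EYFP. Both pairs of groups overlapped, with a difference of 0.31 in IP (SE 0.15) and 0.05 in input (SE 0.16). Beside it, the mean of 10 immediate early genes, which mark recent activity, was 4.34 in hTyr IP, 4.28 in EYFP IP, 4.53 in hTyr input and 4.46 in EYFP input. Their part in the Btg2 values was not tested.

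Bax (7:45461695-45466903, minus strand) encodes the protein that opens the outer mitochondrial membrane in apoptosis. In IP it ranged from 5.14 to 5.41 in hTyr and from 5.28 to 5.59 in EYFP, and in input from 5.49 to 5.63 and from 5.39 to 5.71. It was thus the member with the lowest IP difference, -0.17 (SE 0.08), with 0.02 (SE 0.07) in input. Of its exon bases, 192 (12.2%) are shared with Gm45808 on the same strand, a gene that is not in the table, so the assignment of reads there is uncertain.

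Phlda3 (1:135766085-135769134, plus strand) encodes a small lipid-binding protein that holds back the survival kinase AKT. In IP it read 7.16, 7.09, 7.36, 7.21 and 7.19 in hTyr animals 1 to 5. In EYFP IP it ranged from 6.81 to 7.22 with a median of 7.01. In input hTyr ranged from 7.43 to 7.69 and EYFP from 7.03 to 7.56. The hTyr groups lay in the upper part of the EYFP range or above it in both fractions. The difference was 0.19 in IP (SE 0.09), 0.25 in input (SE 0.09) and 0.22 for the mean of both (SE 0.07). Its 95% intervals were 0.01 to 0.37 in IP and 0.07 to 0.44 in input. The intervals of Mdm2, Ccng1 and Trp53inp1 in IP also lay above 0, and that of Sesn1 in input lay below it. These intervals are not adjusted for the number of genes and rest on the values that the choice used, so they are descriptions and no test.

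Trp53inp1 (4:11156441-11174379, plus strand) encodes a stress protein that acts with p53 in the nucleus and in autophagy. In hTyr IP it ranged from 3.85 to 4.33 and in EYFP IP from 3.48 to 3.99. In input it ranged from 2.95 to 4.11 in hTyr and from 3.04 to 3.96 in EYFP, and the hTyr range was the widest of any member in that group. The difference was 0.29 in IP (SE 0.12) and -0.02 in input (SE 0.19).

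Sesn1 (10:41810574-41908436, plus strand) encodes sestrin 1, which restrains the growth kinase complex mTORC1 and protects against oxidation. In IP it ranged from 5.55 to 6.14 in hTyr and from 5.69 to 6.19 in EYFP, and in input from 4.94 to 5.37 and from 5.14 to 5.50. It was the one member lower in hTyr in both fractions, by -0.11 (SE 0.12) in IP and -0.19 (SE 0.08) in input.

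By sign alone, 4 of the 8 members (Cdkn1a, Ccng1, Phlda3 and Btg2) were higher in hTyr in both fractions, and 24.4% of all genes were. The input differences of Ccng1 and Btg2, 0.03 and 0.05, were within their standard errors, and both turned below 0 in 2 alternatives each. The members' median difference was 0.25 in IP and 0.03 in input, where the median over all genes was -0.01 in both. Since the members were chosen with these contrasts known, nothing is read from these counts.

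Whether the IP and input libraries of an animal moved together was examined within each treatment. Across the 6 EYFP animals, Pearson's r between IP and input was 0.94 for Trp53inp1, 0.91 for Cdkn1a, 0.86 for Btg2 and 0.82 for Phlda3. For Mdm2 it was 0.39, for Bax 0.06, for Ccng1 -0.18 and for Sesn1 -0.38. For Cdkn1a and Trp53inp1 the 6 EYFP animals had the same order in IP and in input (Spearman's rho of 1). With deviations from the treatment means over all 11 animals, r was 0.80 for Trp53inp1, 0.77 for Btg2, 0.66 for Cdkn1a and 0.64 for Phlda3, and for the other 4 members it lay between -0.15 and 0.30. The median over all genes was 0.27, with quartiles of -0.02 and 0.53. The input is the sample before the pull-down, so both libraries share the animal, and these r values are descriptions.

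**Figure D3:**
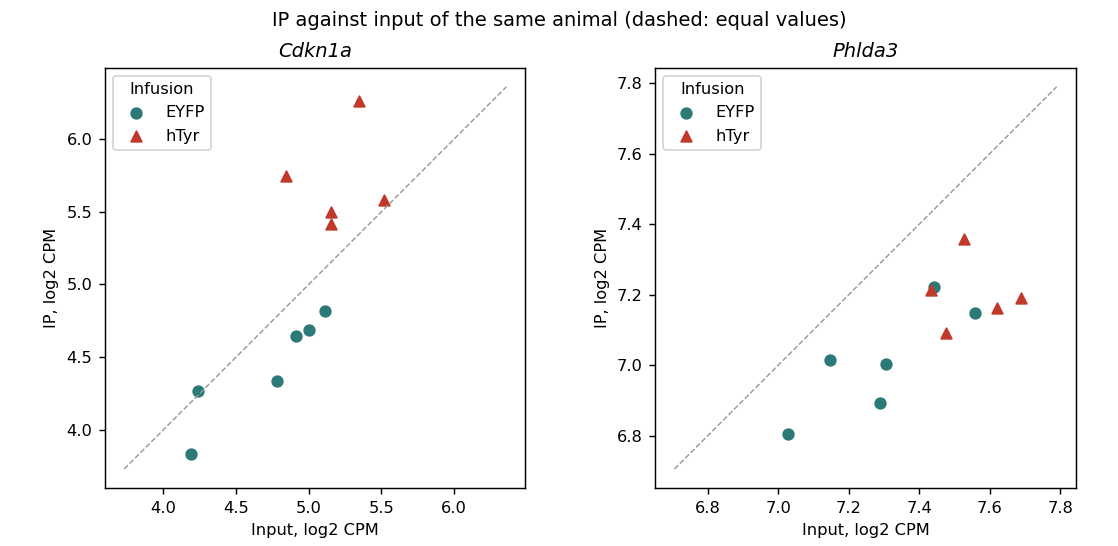
IP (y axis) against input (x axis) of the same animal in log2 CPM for Cdkn1a (left) and Phlda3 (right), with EYFP animals as circles, hTyr animals as triangles and a dashed line of equal values. For Cdkn1a the hTyr animals lie above the line in 5 of 5 cases and the EYFP animals below it in 5 of 6, while for Phlda3 all 11 animals lie below it.

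IP against input asks where each gene's RNA stands in the pulled-down RNA, which also held RNA of other cell types, relative to the whole tissue. In EYFP animals this comparison was not the one that the members were chosen by, but their values in these libraries were known. It shares its EYFP IP and EYFP input libraries with the treatment comparisons that the choice used. Its p-values are therefore not separate from that choice and are given as a description. In EYFP animals Sesn1 was higher in IP, with libraries from 5.69 to 6.19 in IP and from 5.14 to 5.50 in input that did not overlap, as for 16.7% of all genes. Its log2 difference was 0.61 (SE 0.09, limma adjusted p = 5.66e-05), higher in 6 of 6 animals. Astrocyte markers reached this size too. The 9 of them ran from -0.43 to 0.65 with a median of 0.21, 6 above 0 and 3 below. Which cell type the Sesn1 difference came from was not tested. Btg2, Phlda3, Mdm2 and Ccng1 were lower in IP, each in 6 of 6 animals with overlapping groups. Btg2 differed by -0.38 (SE 0.14, limma adjusted p = 0.032), Phlda3 by -0.28 (SE 0.09, adjusted p = 0.016), Mdm2 by -0.28 (SE 0.07, adjusted p = 0.0044) and Ccng1 by -0.21 (SE 0.07, adjusted p = 0.014). Thus 5 of the 8 members passed, 1 higher and 4 lower, while 56.5% of all genes passed, 28.5% higher and 28.1% lower. Adjusted p-values are over all genes. The reported fit treated the IP and input libraries of an animal as independent, so these p-values measure the spread between libraries within a fraction.

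The other 3 members did not pass in EYFP animals. Cdkn1a differed by -0.28 (SE 0.18, limma adjusted p = 0.20), and with the animal as a replicate block it passed (adjusted p = 0.0046). Bax differed by -0.07 (SE 0.07, adjusted p = 0.41) and Trp53inp1 by 0.10 (SE 0.14, adjusted p = 0.59). Some calls did not hold with 1 animal left out, while the differences stayed below 0. They lay between -0.42 and -0.34 for Btg2, -0.31 and -0.25 for Phlda3, and -0.24 and -0.17 for Ccng1. Btg2 no longer passed without EYFP animal 4, 5 or 6 (limma adjusted p of 0.078, 0.066 and 0.069), Ccng1 without animal 1 or 6 (0.070 and 0.064) or with 1 spread for all libraries (0.098), and Phlda3 without animal 3 (0.059). Phlda3 also missed the threshold, at -0.15, when the trend of a library on length and GC content was removed (adjusted p = 0.12). With the same removal Trp53inp1 turned to -0.38 and passed as lower in IP (limma adjusted p = 0.0071). Mdm2 and Sesn1 passed in each of 18 alternatives.

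In hTyr animals the IP values are those that the choice of members used, so IP against input is given there as a description with no test of the members. Sesn1 was again higher in IP, by 0.68 (SE 0.11) and in 5 of 5 animals, with no overlap. Cdkn1a was higher in IP by 0.50 (SE 0.15), in 5 of 5 animals and with overlapping groups, and by 0.40 without hTyr animal 2. Phlda3 was lower by -0.35 (SE 0.08) and Bax by -0.26 (SE 0.08), each in 5 of 5 animals without overlap. Over all genes 54.4% passed in hTyr animals, 27.4% higher and 27.0% lower in IP. Without overlap, 20.7% of all genes were higher and 16.8% lower. Trp53inp1 differed by 0.40 (SE 0.18), Btg2 by -0.12 (SE 0.17), Ccng1 by 0.08 (SE 0.14) and Mdm2 by 0.05 (SE 0.12). With the length and GC trend removed, Phlda3 was at -0.10, Bax at -0.00094, Trp53inp1 at -0.27 and Ccng1 at -0.39. Oligodendrocyte markers were lower in IP in both treatments, by a median of -0.40 in EYFP and -0.46 in hTyr, and their part in the members that were lower in IP was not tested. The median of the astrocyte markers was 0.21 in EYFP and 0.34 in hTyr, and their part in the members that were higher in IP was not tested.

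**Figure D4:**
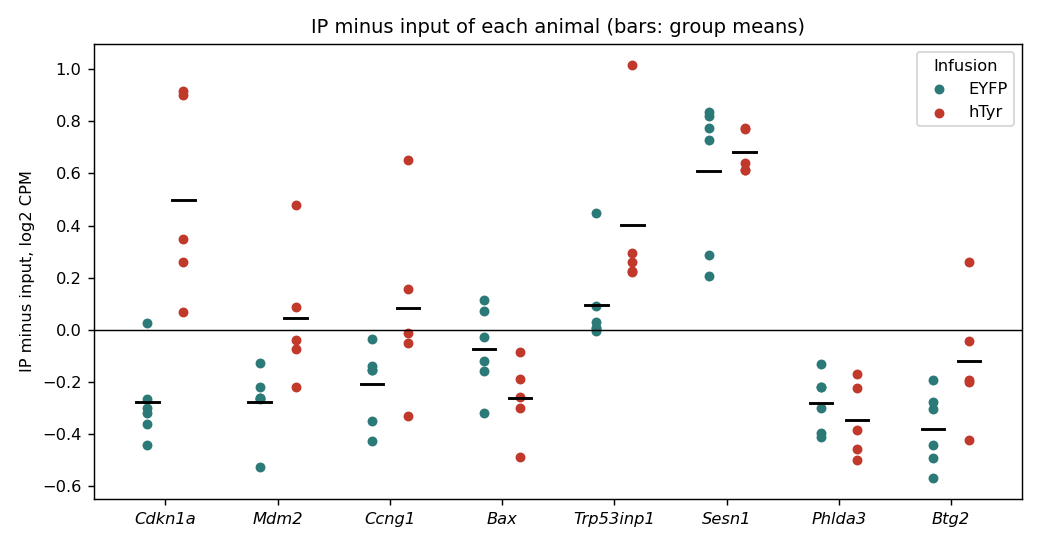
IP minus input of each animal in log2 CPM (y axis) for the 8 genes (x axis), EYFP animals in green and hTyr animals in red, with black bars for group means. Sesn1 is above 0 in all 11 animals and Phlda3 below 0 in all 11, whereas Cdkn1a has means of -0.28 in EYFP and 0.50 in hTyr.

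The change in IP minus input between treatments, which the choice of members used, was 0.78 for Cdkn1a. It was 0.32 for Mdm2 (SE 0.14), 0.31 for Trp53inp1 (SE 0.24), 0.29 for Ccng1 (SE 0.16) and 0.26 for Btg2 (SE 0.23). For Sesn1 it was 0.07, for Phlda3 -0.07 and for Bax -0.19. Across all genes 0.00794% passed for this difference, with 0 of the 8 members among them. Cdkn1a was the member whose animals did not overlap, where 0.460% of all genes were higher without overlap. Among hTyr animals, animal 1 had the highest IP minus input for Cdkn1a, Mdm2, Ccng1 and Trp53inp1 (0.92, 0.48, 0.65 and 1.02) and the lowest for Bax (-0.49).

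Levels were compared between members per kilobase of the longest coding transcript in EYFP IP. Phlda3 was highest at 90.4 ± 9.69 CPM per kilobase (SD, n = 6), followed by Bax at 39.3 ± 3.20. Sesn1 (16.5 ± 2.38), Mdm2 (16.1 ± 1.11) and Ccng1 (14.9 ± 1.04) came next and overlapped in their ranges. Cdkn1a followed at 10.6 ± 2.47, and its range, from 6.79 to 13.48, ended just below the lowest Sesn1 library, 13.54. Btg2 (4.22 ± 0.82) and Trp53inp1 (2.53 ± 0.34) were lowest, and their ranges did not meet.

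A wider list of 30 further p53 targets had 24 genes in the table. None passed for hTyr against EYFP in IP or in input, where 0.0556% and 0.00794% of all genes did, so nothing is read from that. In IP 4 and in input 3 of them had an unadjusted p under 0.05 (limma), against 780 and 382 of all 12596 genes. In IP 20 of the 24 were above 0, against 6072 of all genes, with a median difference of 0.14, against -0.01 for all genes, and in input 15 of 24 with a median of 0.01. The largest IP differences were those of Sesn2, the stress-induced sestrin paralogue, at 0.63 (SE 0.18), and Pmaip1, which encodes the BH3-only death protein NOXA, at 0.34 (SE 0.26). In input they were 0.17 and 0.35. The lowest were Ppm1d, a phosphatase that switches p53 off, at -0.20 (SE 0.14), and Ei24 at -0.09 (SE 0.10). Like the members, this list was written with earlier results known. In IP against input of EYFP animals 3 of the 24 rose and 6 fell (limma), beside 28.5% and 28.1% of all genes. In hTyr animals 8 rose and 3 fell, beside 27.4% and 27.0% of all genes.

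**Figure D5:**
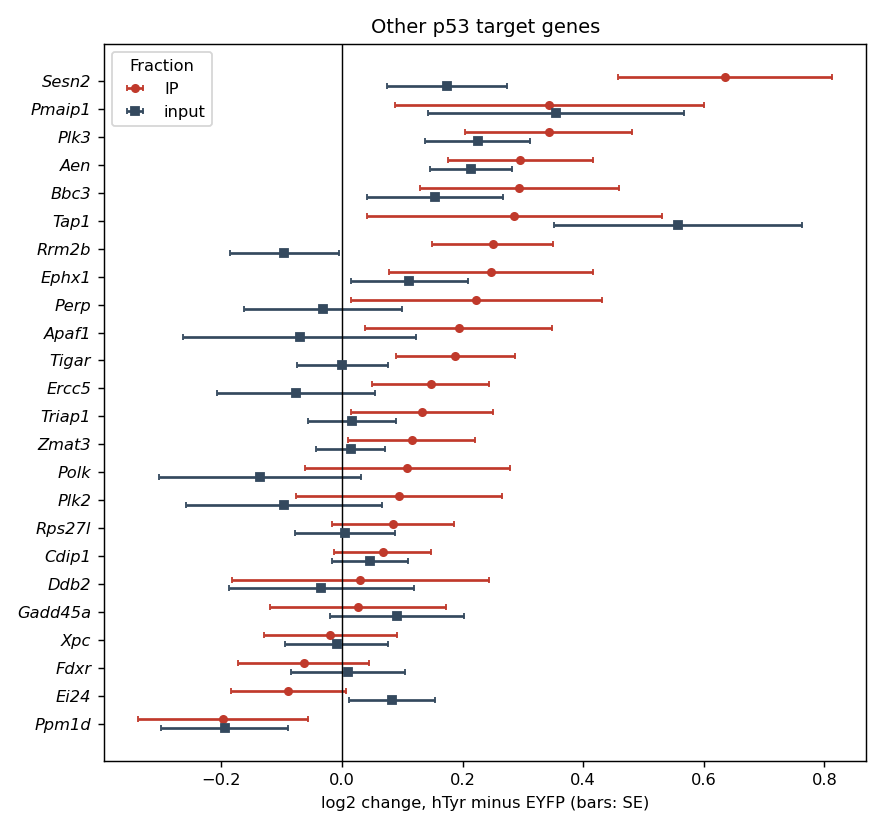
Log2 difference between hTyr and EYFP (x axis, bars are SE) for 24 other p53 target genes (y axis, sorted by the IP value) in IP (red circles) and input (dark squares). In IP 20 of the 24 lie above 0, from 0.63 for Sesn2 down to -0.20 for Ppm1d. None passed the threshold, which 0.0556% of all genes passed in IP.

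Of 24 listed genes for p53 itself and its regulators, 19 were in the table and none passed for the treatment in IP or input, where 2 and 2 had an unadjusted p under 0.05. Over all 12596 genes 0.0556% passed in IP and 0.00794% in input, and 780 and 382 had an unadjusted p under 0.05 (limma). With so few passing, none in a list of this size is not read as a result. Trp53, the gene of p53, differed by -0.08 in IP (SE 0.10) and 0.11 in input (SE 0.08). The list's median in IP was -0.09, with 13 of 19 below 0. The highest were the damage kinase gene Atr at 0.15 and the deacetylase gene Sirt1 at 0.12, and the lowest were Prkdc, a DNA repair kinase gene, at -0.44 (SE 0.16) and the acetyltransferase gene Crebbp at -0.24 (SE 0.08).

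Of the machinery that p21 acts on, 14 of 24 listed CDK, cyclin and inhibitor genes were in the table. None passed in either fraction, and 0 had an unadjusted p under 0.05. Beside this and the next lists, 0.0556% of all genes passed in IP and 0.00794% in input, and 780 and 382 of 12596 had an unadjusted p under 0.05 (limma). Nothing is read from none passing in lists of this size. The IP differences of the CDK, cyclin and inhibitor genes ran from -0.19 for Ccne1 and -0.16 for E2f1 to 0.07 for Rbl2 and 0.16 for E2f3, with a median of -0.02. Of 20 BCL2 family and caspase genes, 19 were in the table and none passed in either fraction (0 in IP and 1 in input at an unadjusted p under 0.05). Their IP values ran from -0.23 for Bmf and -0.21 for Bok to 0.29 for Bbc3, the gene of PUMA, and 0.34 for Pmaip1, with a median of 0.01. Among 14 paralogues of the members none passed (1 in IP and 2 in input at an unadjusted p under 0.05). Sesn2 at 0.63 and Btg3 at 0.28 were highest, Bok at -0.21 and Ccng2 at -0.15 lowest, and the median was 0.01. Cdkn1b, a paralogue of Cdkn1a that also encodes a CDK inhibitor, stood at 0.07 in IP and -0.06 in input.

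The 5 genes whose values were most like those of Cdkn1a over the 22 libraries were Tnfrsf12a (r = 0.81), Ifrd1 (0.80), Ddit3 (0.80), Slc52a2 (0.79) and Cstb (0.78). After the group means were subtracted, r with Cdkn1a was 0.54, 0.46, 0.53, 0.46 and 0.47 in that order. The treatment differences of these 5 in input were 0.06, 0.05, -0.03, 0.22 and 0.11, against 0.49 for Cdkn1a. In IP they were 1.03, 0.65, 1.14, 0.31 and 0.58, against 1.27. Since the 5 were picked by likeness to Cdkn1a, a difference between treatments is built into the choice, and nothing is read from it. For Slc52a2 the lowest hTyr library lay just above the highest EYFP one in each fraction. In IP this held for 0.389% of all genes, and the share in input is not given. In input it ranged from 3.83 to 3.95 in hTyr and from 3.56 to 3.81 in EYFP. In IP its ranges were 3.83 to 4.21 and 3.61 to 3.81. Tnfrsf12a encodes the receptor of the cytokine TWEAK, and Ddit3 encodes CHOP, a transcription factor of the endoplasmic reticulum stress response. Among the other members, r with Cdkn1a over the 22 libraries was 0.50 for Ccng1, 0.47 for Phlda3, 0.32 for Mdm2, 0.30 for Trp53inp1 and 0.09 for Btg2. It was -0.20 for Sesn1 and -0.30 for Bax. After subtraction of group means, Phlda3 was the closest member at 0.56, and Sesn1 the farthest at -0.49. The libraries share animals and treatments, so these r values are descriptions.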

How the data were processed

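RNA sequencing libraries were made from 22 samples of 11 mice. The authors deposited 1 table of filtered, normalized log2 values for 12596 genes. Per the submitters' processing notes, STAR, featureCounts and mm10 were used; versions, filter and normalization are not given in the sources used here. From the values, the deposited log2 unit is CPM with a pseudocount that averaged 2 reads, since 100% of values came out as whole reads (tolerance 0.05), with 12654489 to 25100142 reads per library. Without molecular identifiers, read numbers cover counting error only.

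The log2 values were tested with limma 3.58.1 in R 4.3.3 (lmFit, eBayes with trend; two-sided), with Benjamini-Hochberg adjustment over all 12596 genes and a threshold of 0.05, for IP against input in each treatment, hTyr against EYFP in each fraction and in the animal mean, and the difference between fractions. With 200 genes changed in simulated data, 100% of 2-fold changes were called for hTyr against EYFP in IP and for IP against input in EYFP animals. Transcript lengths came from GENCODE vM21. Figures were drawn with Python 3.11.15 and matplotlib 3.10.9.

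IP and input were paired by the animal number in the sample titles. The pairing was used for the animal mean, the IP minus input of each animal and the replicate block. The reported fits of IP against input and of the difference between fractions did not use it. Deviations from group means correlated across genes at 0.28 to 0.63 within animals and at -0.04 on average between animals.

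The members, lists and tests were chosen with earlier results of these data known. Named genes are all 8 members, in each list the genes past the threshold for the treatment or otherwise the 2 highest and 2 lowest in IP, Trp53 and Cdkn1b in addition (named for their roles), and the 5 genes most like Cdkn1a by Pearson's r. One listed gene was matched by an older symbol. Alternatives were other normalizations, a pseudocount of 5 CPM, a filter that keeps 75% of genes by mean level, a shared spread, no variance trend, voom in limma on recovered reads, covariates for total reads and glial markers, the replicate block and leaving out each animal. Chosen after seeing the data were removal of each library's length and GC trend, the same with the replicate block, and a covariate of Y-linked genes.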

Additional observations from a re-analysis of the deposited data

Results flagged for a closer look

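In 5 of the 32 sets of libraries (8 genes in 4 groups), the highest or lowest library stood apart from the rest of its group by more than Dixon's 95% limit, where chance gives about 1.6 of 32. hTyr animal 5 gave 3 of them: the lowest Mdm2 in hTyr IP at 5.70 log2 CPM, next to 5.89, the lowest Ccng1 in hTyr IP at 5.52, next to 6.06, and the lowest Btg2 in hTyr input at 3.36, next to 3.95. Bax was highest in the input of hTyr animal 1 at 5.63, next to 5.52. Trp53inp1 was lowest in the input of EYFP animal 2 at 3.04, next to 3.62, a value that rests on 168 reads. None of the 4 Cdkn1a groups met this limit.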

How the results depend on the processing

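The Cdkn1a difference between hTyr and EYFP lay between 1.10 and 1.35 in IP and between 0.39 and 0.58 in input over 22 alternatives each, above 0 in all of them. For IP against input in EYFP animals Sesn1 passed in every alternative run (0.55 to 0.69). In hTyr animals, where members are not tested, its difference lay between 0.54 and 0.70.

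The number of genes past the threshold for hTyr against EYFP in IP, 7 in the reported fit, was 14 with 1 spread from all 22 libraries and 0 with total reads as a covariate (limma, 700 at an unadjusted p under 0.05). In input, 1 gene became 0 with the shared spread, with total reads and with the length and GC trend removed (253, 281 and 401 at an unadjusted p under 0.05). For the animal mean, 1 became 0 in the upper 75% of genes (433 unadjusted). For the difference between fractions, 1 became 0 with total reads (325 unadjusted), 3 with the glial score, 2 with the Y-linked score and 4 with the length and GC trend removed. With the replicate block it was 2, and 0 when that block was joined to the trend removal (679 unadjusted). For IP against input in hTyr animals, 6853 became 3817 with total reads. Leaving out each animal gave 3 to 11 genes in IP, 0 to 2 in input, 0 to 2 for the mean and 0 to 5 for the difference between fractions. It left 3 to 5 members past the threshold for IP against input in EYFP animals. The causes were not tested.

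IP against input turned sign in these cases. Trp53inp1 in EYFP was -0.013 with total reads and -0.38 with the trend removed, with or without the replicate block, where it passed as lower (limma adjusted p = 0.0071, and 0.0020 with the block). In hTyr it was -0.27 with the trend removed, both ways. Bax in EYFP was 0.053 with the trend removed, both ways. Mdm2 in hTyr was -0.024 with quantile normalization, -0.023 with median centring, -0.14 with total reads and with the trend removed (both ways), and between -0.062 (without hTyr animal 1) and 0.11 with 1 animal left out. Ccng1 in hTyr was -0.15 with total reads, -0.39 with the trend removed (both ways), and between -0.060 (without hTyr animal 1) and 0.19 with 1 animal left out. The treatment difference followed length and GC content across genes (Spearman's rho of -0.05 and -0.27 in IP and -0.41 and 0.42 in input, over 12374 genes). In EYFP animals the replicate block on its own changed the call of Cdkn1a, which then passed (limma adjusted p = 0.0046). For hTyr animals, whose IP values the choice of members used, no calls of members are given.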
